A study of Homo sapiens with 8 samples.

Results

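ESRP1, ESRP2, RBFOX2, PTBP1, PTBP2, PTBP3, MBNL1, MBNL2, NOVA1 and QKI encode RNA-binding proteins that choose which exons enter an mRNA in a given cell lineage. These 10 genes were selected by name and not by their values, though earlier results of these data were known. They were followed from human pluripotent stem cells (hPSC) into cultures directed to ectoderm, endoderm or mesoderm, in poly(A) RNA read on a PacBio Sequel II, an instrument whose long reads can span a transcript. The combined transcript assembly named 20195 genes and held 96614 transcripts with counts, of which 71 belonged to these 10 genes. A further 16 assembled transcripts listed under the same genes only because they lie inside an intron were left out of the gene counts.

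The 8 libraries were all made from 1 established line, the human embryonic stem cells H1. The hPSC group was kept on Matrigel in mTeSR1. Each layer was collected after 5 days. Endoderm cultures received RPMI with 0.5% FBS, WNT3A and 100 ng/ml Activin A. Mesoderm cultures received DMEM/F12 with 0.5% FBS, 100 ng/ml VEGF, 100 ng/ml BMP4 and 10 ng/ml bFGF, with 100 ng/ml Activin A for the first 24 h. Ectoderm cultures received DMEM/F12 with 15% KOSR and the inhibitors A83-01, PNU-74654 and Dorsomorphin at 2 µM each. Each group had 2 libraries, named repeats 1 and 2 in the labels. The labels do not say that the repeats came from separate cultures, so p-values measure the spread between these libraries, which may be technical.

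Lineage splicing regulators act by binding short sequence motifs in pre-mRNA, and the position of the bound motif decides whether the neighbouring exon is included or skipped. ESRP proteins mark epithelial cells and MBNL proteins rise in many tissues as cells mature. PTBP1 is the form of most dividing cells and PTBP2 that of early neural cells, and PTBP1 limits PTBP2 by causing one of its exons to be skipped. Several of these genes splice their own transcripts, so both the amount of RNA and the exons it carries were examined.

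Library totals ranged from 503840 to 1180888 reads counted in transcripts, and 1 read was worth 0.847 to 1.98 CPM, counts scaled to a library total of 1000000. The ectoderm libraries were the deepest and also had the longest transcripts, with a mean assembled length per read of 4406 and 4650 nt against 2975 to 3840 nt in the other 6 libraries. The 2 hPSC libraries agreed least: 23.8% of the 10847 genes tested differed 2-fold or more between them, while the repeats of ectoderm did so for 1.78%, of mesoderm for 6.63% and of endoderm for 12.5%. Marker lists followed the labels in part. Of 5 tested ectoderm markers 4 rose in ectoderm (DLK1, LHX5, PAX6 and SIX3), and all 6 tested endoderm markers rose in endoderm. Each of these passed the low-count filter only through the layer in which it rose, so these counts are a description. LHX2 and FOXA2 were not tested. In mesoderm 3 of 5 tested mesoderm markers rose, KDR fell, and MIXL1, FOXF1 and MESP1 had no read. In endoderm 4 of the 5 tested mesoderm markers also rose (BMP4, HAND1, MIXL1 and TBX3), as did the ectoderm markers OTX2 and PAX6. BMP4 rose in ectoderm too, and GATA6 in mesoderm. Between those layers, BMP4, HAND1 and TBX3 were lower in endoderm than in mesoderm, and KDR and MIXL1 higher. Counts were tested with edgeR's quasi-likelihood test over all 8 libraries and all genes, with Benjamini-Hochberg adjusted p-values and a threshold of 0.05. Fold changes below are log2 values with the standard error (SE) of that fit, and p-values named as adjusted come from it unless another test is named.

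Against hPSC, 6 of the 9 tested genes passed in ectoderm, where PTBP2, PTBP3, MBNL2, NOVA1 and QKI rose and ESRP2 fell. Across all genes 48.6% passed in that comparison. With a trend on transcript length removed, 3 of the 9 passed in ectoderm (MBNL2, QKI and ESRP2) with 36% of all genes. In endoderm 1 of 9 passed (RBFOX2, higher) with 27.2% of all genes, and in mesoderm 1 of 9 passed (MBNL2, higher) with 35.1% of all genes. MBNL1 had too few reads to be tested. NOVA1 passed the low-count filter only through its ectoderm libraries, and MBNL2, PTBP2 and QKI only through ectoderm and mesoderm. Counts and medians over the 9 genes are therefore a description. The median change of the 9 genes was 1.28 in ectoderm, 0.53 in mesoderm and -0.61 in endoderm, beside -0.011, 0.0083 and -0.13 over all genes. Levels in CPM did not overlap between the layer and hPSC libraries for 7 of the 9 genes in ectoderm, 5 in mesoderm and 6 in endoderm, beside 73.3%, 66.7% and 62.2% of all tested genes. The 3 comparisons share the hPSC libraries and are not independent.

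Scaling matters here. The fit used trimmed-mean (TMM) factors, whereas CPM uses library totals alone. With library totals alone the median change of all genes moved to 0.43 in ectoderm, -0.48 in endoderm and 0.25 in mesoderm, and the share of called genes that were higher went from 49.0% to 68.2%, from 49.5% to 31.0% and from 48.1% to 59.9%. Fitted changes are therefore relative to most genes, and can differ from what the CPM values show. In bulk RNA, fewer cells of a type and less RNA per cell cannot be told apart.

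**Figure D1:**
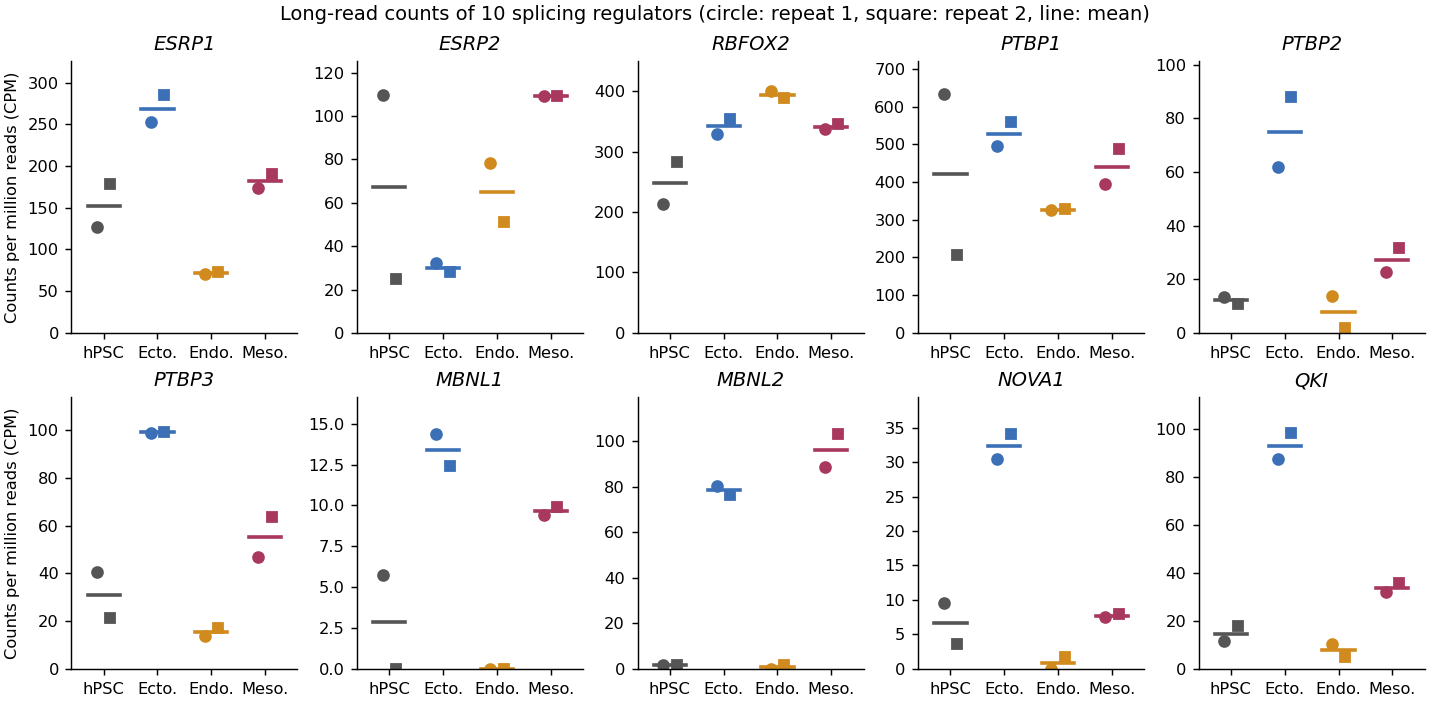
CPM of each of the 10 genes (vertical axis, own scale in each panel) in the 8 libraries, by group on the horizontal axis; circles are repeat 1, squares repeat 2 and lines the mean of 2. MBNL2 is between 76.5 and 103 CPM in ectoderm and mesoderm and at most 1.93 CPM in hPSC and endoderm, while the 2 hPSC libraries are far apart for ESRP2 and PTBP1.

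MBNL2 had the widest range of group mean log2 CPM among the 9 tested genes. Muscleblind-like proteins bind short GC-containing motifs, and MBNL2 is the member best known from the brain. The gene (ENSG00000139793.21, GRCh38 chromosome 13, 97222274 to 97394119, plus strand) had 1 read in each hPSC library, 95 and 74 reads in the ectoderm libraries, 0 and 1 in endoderm and 47 and 52 in mesoderm. In CPM this was 1.93 and 1.78, then 80.4 and 76.5, then 0 and 1.71, then 88.5 and 103. Ectoderm and mesoderm were high and did not overlap hPSC or endoderm. Pooled over repeats, the ratio to hPSC was 42.5 in ectoderm (95% exact interval 11.6 to 354) and 51.7 in mesoderm (13.9 to 433), intervals that cover counting error only. The adjusted p was 1.92e-05 in ectoderm and 6.43e-06 in mesoderm, and both calls passed under all 16 alternatives run. MBNL2 passed the low-count filter only through its ectoderm and mesoderm libraries, where it was high, so these values are a description. Ectoderm and mesoderm did not pass against each other (log2 change -0.48 ± 0.30 SE, adjusted p 0.237), with mesoderm at 95.9 ± 10.4 CPM and ectoderm at 78.5 ± 2.79 CPM (SD, n = 2).

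MBNL1, the broadly expressed relative of MBNL2 (ENSG00000152601.18, chromosome 3, 152268600 to 152465780, plus strand), was scarce throughout. It had 3 and 0 reads in hPSC, 17 and 12 in ectoderm, 5 and 5 in mesoderm and 0 and 0 in endoderm. No endoderm library held a read, where 3 reads would be 5.12 CPM. The pooled ratio to hPSC was 4.87 in ectoderm (95% exact interval 1.51 to 25.0) and 3.48 in mesoderm (0.897 to 19.7), the latter including no difference. Against a floor of 3 reads in each endoderm library, MBNL1 was at least 2.62-fold higher in ectoderm and at least 1.89-fold higher in mesoderm.

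The exons of MBNL2 could be read only in ectoderm and mesoderm. A 54-nt exon that MBNL1 and MBNL2 share, which is known to favour a nuclear location of the protein, is printed for both genes because its inclusion separates MBNL isoforms. Capitals mark the 45 of 54 bases (83.3%) that are identical in the pair, both read 5′ to 3′ from GRCh38.
MBNL2, chr13:97356796-97356849, plus strand: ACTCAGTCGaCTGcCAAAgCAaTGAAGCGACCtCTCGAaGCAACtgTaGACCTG
MBNL1, chr3:152446704-152446757, plus strand: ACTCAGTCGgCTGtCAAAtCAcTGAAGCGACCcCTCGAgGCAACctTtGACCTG
In MBNL2 the exon was included in 109 of 114 informative reads in ectoderm (95.6%) and in 49 of 59 in mesoderm (83.1%). The 2 ectoderm libraries gave 97.0% and 93.6% and the 2 mesoderm libraries 92.9% and 74.2%, so the groups did not overlap in these 4 libraries, but the exon was not tested because hPSC and endoderm held 1 such read in all. In MBNL1 the exon was part of 3 of 4 assembled transcripts and was not a cassette in this assembly. Another MBNL2 exon, of 95 nt, was included in 87.1% of 132 ectoderm reads and 89.6% of 77 mesoderm reads. A 36-nt exon of MBNL1 was included in 8 of 24 reads in ectoderm (33.3%) and 1 of 9 in mesoderm (11.1%).

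A pair of MBNL2 transcripts could be tested. The main one, with 9 exons, had 0 and 1 reads in hPSC, 55 and 37 in ectoderm and 22 and 19 in mesoderm (adjusted p 0.000193 and 0.000294). The other has only 2 exons and ends inside the gene. Both transcripts passed the low-count filter only through the groups in which they were high, so their values are a description. The 2-exon transcript had no read in hPSC or endoderm, 13 and 21 in ectoderm and 10 and 9 in mesoderm (adjusted p 0.00268 and 0.00293). It made up 20.1% of 169 MBNL2 reads in ectoderm and 19.2% of 99 in mesoderm. All 6 assembled MBNL2 transcripts shared the first splice donor and started within chromosome 13 positions 97222274 to 97222324. The 191 bases just before that start, from the RefSeq promoter table for GRCh38.p14, are given because the counted MBNL2 transcripts share this 1 start. Capitals mark its 2 CG dinucleotides.
MBNL2 upstream, chr13:97222083-97222273, plus strand: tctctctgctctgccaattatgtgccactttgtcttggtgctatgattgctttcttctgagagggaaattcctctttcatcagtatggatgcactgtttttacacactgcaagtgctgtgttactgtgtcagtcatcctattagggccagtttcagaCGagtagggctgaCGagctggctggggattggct
Among 35116 promoter windows of this length, each taken from the upstream end of its table entry, the median was 7 CG dinucleotides and 79.6% had at least 2. These windows were not placed by assembled starts. They need not lie just before a start as the MBNL2 bases do, so the values do not rank this promoter.

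For MBNL2, chosen for that range, the 3 tested genes with the nearest pattern over the 8 libraries were KIAA1217, MALAT1 and PTN, by Euclidean distance of centred log2 CPM among 10524 genes (1.26, 1.34 and 1.35). PTN, a secreted growth factor, had 2 and 2 reads in hPSC, 61 and 50 in ectoderm, 50 and 48 in mesoderm and none in endoderm. MALAT1, a nuclear noncoding RNA, had 70 and 80 reads in hPSC, 3421 and 3425 in ectoderm, 1074 and 1104 in mesoderm and 74 and 77 in endoderm. These genes were found by their likeness, which is a description of these libraries.

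QKI rose in ectoderm under every setting tried. Quaking is a STAR-family protein that acts on splicing, RNA stability and circular RNA formation, and it is prominent in glia and in mesenchymal cells. The gene (ENSG00000112531.17, chromosome 6, 163415054 to 163578583, plus strand) had 6 and 10 reads in hPSC, 103 and 95 in ectoderm, 17 and 18 in mesoderm and 6 and 3 in endoderm. The levels were 14.7 ± 4.41 CPM in hPSC, 92.7 ± 7.78 in ectoderm, 33.9 ± 2.63 in mesoderm and 7.68 ± 3.63 in endoderm (SD, n = 2), with no overlap between any pair of groups. The ectoderm rise was 2.20 ± 0.40 SE (adjusted p 0.000439) and passed under all 17 alternatives. QKI reached the low-count filter level in both ectoderm and both mesoderm libraries, 1 hPSC library and 0 endoderm libraries. It was therefore tested only through its ectoderm and mesoderm libraries, so these values are a description. QKI reads fell on transcripts with a mean of 8082 nt, and with the length trend removed the rise was 1.24 (adjusted p 0.0248, the highest of the 17). The mesoderm change of 0.95 ± 0.46 SE did not pass (adjusted p 0.123). It passed under 2 of 17 alternatives, with library totals alone (1.20) and with intronic transcripts counted (1.08), over adjusted p-values from 0.0452 to 0.443.

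QKI proteins differ at their C-terminal end through the choice of last exon. The most used last exon, with its acceptor at 163570694, was shared by 3 assembled transcripts. It took 14 of 15 spliced QKI reads in hPSC (93.3%) and 130 of 164 in ectoderm (79.3%). In endoderm it took 7 of 8 and in mesoderm 28 of 34 (82.4%), and this choice was not tested for lack of reads. The shares that follow are of single transcripts among all QKI reads, not of last exons. The 341-residue form (ENST00000361752.8), which is known to enter the nucleus, took 12 of 16 reads in hPSC (75.0%), 85 of 198 in ectoderm (42.9%), 3 of 9 in endoderm (33.3%) and 20 of 35 in mesoderm (57.1%). Its 95% exact interval was 47.6% to 92.7% in hPSC and 35.9% to 50.1% in ectoderm, which overlap. The 319-residue form (ENST00000453779.6) took 34 of 198 ectoderm reads (17.2%) and 6 of 35 mesoderm reads (17.1%), and 1 read in each of hPSC and endoderm. The 333-residue form (ENST00000361195.6) took 10.6% of ectoderm reads and had none in hPSC. Only the 341-residue transcript was deep enough to test, which its hPSC and endoderm reads alone would not have allowed. It rose in ectoderm by 1.59 (adjusted p 0.0182), which is likewise a description. That call was lost without hPSC repeat 1 (1.29, adjusted p 0.0549), without ectoderm repeat 2 (1.70, 0.0640) and with DESeq2 (1.71, 0.152, the highest of its alternatives). In ectoderm 29.3% of QKI reads lay in transcripts with a single exon or holding a whole intron.

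PTBP2 and PTBP3 rose in ectoderm, while no change of PTBP1 passed. Polypyrimidine tract-binding proteins mostly repress exons flanked by CU-rich sequence. PTBP2 (ENSG00000117569.20, chromosome 1, 96721777 to 96815669, plus strand), the neural form, had 7 and 6 reads in hPSC, 73 and 85 in ectoderm, 12 and 16 in mesoderm and 8 and 1 in endoderm. Only the ectoderm libraries were high, and they did not overlap any other group. The ectoderm rise was 2.19 ± 0.48 SE (adjusted p 0.00178) and the mesoderm change 0.93 ± 0.57 SE (adjusted p 0.223). PTBP2 passed the low-count filter only through its ectoderm and mesoderm libraries, so these values are a description. PTBP3 (ENSG00000119314.16, chromosome 9, 112218435 to 112333692, minus strand), also called ROD1, had 21 and 12 reads in hPSC, 117 and 96 in ectoderm, 25 and 32 in mesoderm and 8 and 10 in endoderm. In CPM the 2 ectoderm libraries were alike at 99.1 and 99.3, above all others at 13.7 to 63.5. The rise was 1.28 ± 0.34 SE (adjusted p 0.00596).

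Both calls of PTBP2 and PTBP3 in ectoderm held when any library was left out and were lost when a trend on transcript length was removed. The change was then 1.18 for PTBP2 (adjusted p 0.0674, the highest of 17 alternatives, with the lowest at 3.24e-06) and 0.41 for PTBP3 (adjusted p 0.355, the highest of 17, with the lowest at 0.000893). Reads of these genes fell on long transcripts, with a mean of 8897 nt for PTBP2 and 7201 nt for PTBP3, and the ectoderm libraries held longer transcripts than the others.

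PTBP1 (ENSG00000011304.22, chromosome 19, 797425 to 812312, plus strand) had 329 and 116 reads in hPSC, 586 and 541 in ectoderm, 209 and 245 in mesoderm and 190 and 192 in endoderm. In CPM the hPSC libraries stood at 634 and 206 and enclosed all the others, which lay between 324 and 559. The fitted changes were -0.024 ± 0.36 SE in ectoderm, 0.043 ± 0.36 SE in endoderm and -0.097 ± 0.36 SE in mesoderm (adjusted p 0.965, 0.953 and 0.860). Without hPSC repeat 1, the higher library, PTBP1 passed as higher in all 3 layers, by 0.77, 0.85 and 0.69 (adjusted p 0.0200, 0.0225 and 0.0466). Those were the only passing values among 17 alternatives in each comparison, where adjusted p reached 0.988, 1 and 0.992.

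The PTBP genes share exons that are spliced differently. A 78-nt exon of PTBP1 separates its 557-residue form (ENST00000356948.11), which has it, from its 531-residue form (ENST00000349038.8), which lacks it, and these forms are known to differ in repressive activity. It is shown with its PTBP3 counterpart, capitals marking the 50 of 78 identical bases (64.1%), 5′ to 3′ from GRCh38.
PTBP1, chr19:805492-805569, plus strand: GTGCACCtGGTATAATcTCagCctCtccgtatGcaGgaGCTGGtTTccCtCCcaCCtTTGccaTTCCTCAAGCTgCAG
PTBP3, chr9:112234820-112234897, minus strand: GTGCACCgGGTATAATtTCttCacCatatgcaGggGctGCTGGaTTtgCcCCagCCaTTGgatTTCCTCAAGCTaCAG
The PTBP1 exon was included in 72.9% and 74.1% of hPSC reads, 61.6% and 60.3% in ectoderm, 65.6% and 67.3% in mesoderm and 59.5% and 64.6% in endoderm. Both hPSC libraries were above all 6 others, although their PTBP1 levels differed most. An exact permutation test over all ways of forming 4 pairs of libraries gave p = 0.0381 and, adjusted over the 5 exons tested, 0.0952, which does not pass. It passed only without endoderm repeat 2 (0.0476), over a range of 0.0476 to 0.262 when each library was left out. The PTBP3 exon was in all 4 assembled PTBP3 transcripts.

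The 34-nt exon of PTBP2 is the one through which PTBP1 is known to limit PTBP2: without it the reading frame shifts and the mRNA is degraded. Its length is not a multiple of 3. It is shown with the matching exons of PTBP1 and PTBP3, with capitals for the 19 bases identical in all 3.
PTBP2, chr1:96806419-96806452, plus strand: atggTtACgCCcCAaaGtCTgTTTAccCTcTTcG
PTBP1, chr19:807869-807902, plus strand: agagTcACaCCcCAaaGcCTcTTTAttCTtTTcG
PTBP3, chr9:112231380-112231413, minus strand: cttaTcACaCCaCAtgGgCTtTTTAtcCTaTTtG
The PTBP1 exon shares 25 of 34 bases with PTBP2 (73.5%) and the PTBP3 exon 21 (61.8%). In the assembly the exon was in 4 of 12 PTBP2 transcripts, in both PTBP1 transcripts and in all 4 of PTBP3. In ectoderm 55 of 100 informative PTBP2 reads included it (55.0%, 95% exact interval 44.7% to 65.0%), with 28 of 50 reads in 1 library and 27 of 50 in the other. The other groups had 4 of 10 reads in hPSC, 3 of 6 in endoderm and 6 of 11 in mesoderm, too few to test, and the hPSC interval of 12.2% to 73.8% holds the ectoderm value. A share of 31.0% of PTBP2 reads in ectoderm came from transcripts that hold a whole intron. By first exon, 48.1% of the 158 ectoderm reads used the most used one, of 90 to 96 nt. Another 29.1% lay on transcripts whose first exon, of 3512 or 14851 nt, ended inside the gene at 96806958. A first exon of 12832 nt, ending at 96804939, took 22.2%. These shares can overlap the 31.0%, and their part in the PTBP2 rise was not tested. In PTBP3 a 170-nt exon was included in 58.1% of 93 informative reads in ectoderm and 65.4% of 26 in mesoderm.

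**Figure D2:**
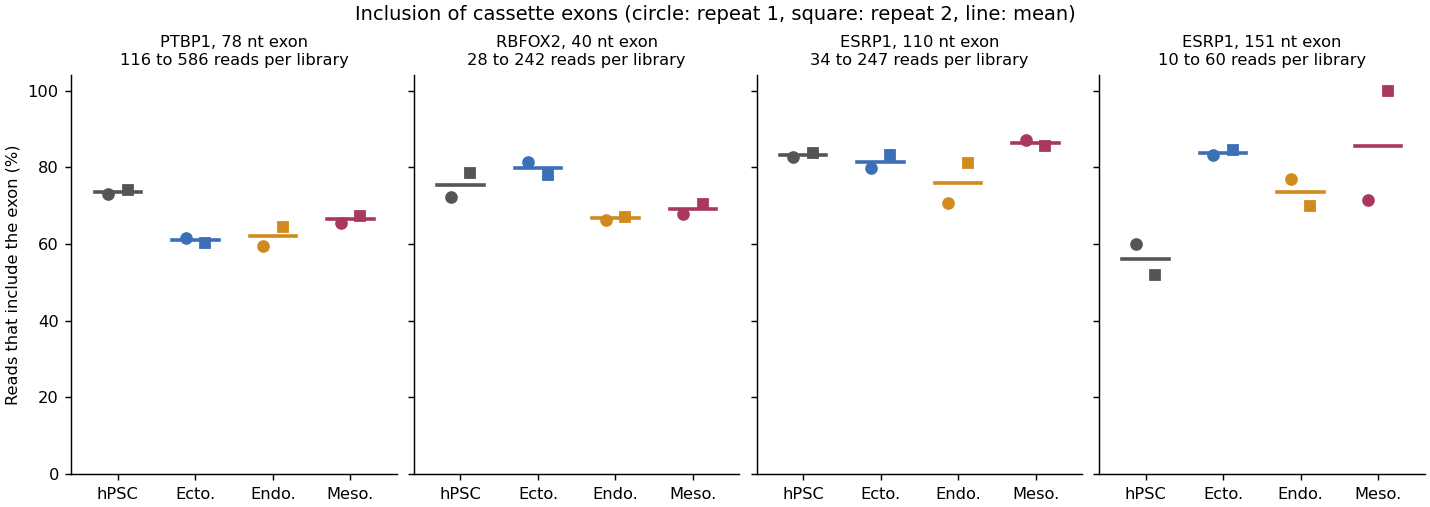
Percent of informative reads that include a cassette exon (vertical axis) in each library, by group, for 4 of the 5 exons tested; circles are repeat 1, squares repeat 2, lines the mean of 2. For the 78-nt exon of PTBP1 both hPSC libraries (72.9% and 74.1%) lie above the other 6, and for the 40-nt exon of RBFOX2 the hPSC and ectoderm libraries (72.4% to 81.4%) lie above endoderm and mesoderm (66.3% to 70.5%).

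RBFOX2 had many reads in every group but differed in the kind of transcript. RBFOX2 binds UGCAUG and in stem cells is one of the main RBFOX proteins. The gene (ENSG00000100320.24, chromosome 22, 35738734 to 36028800, minus strand) had 111 and 159 reads in hPSC, 389 and 343 in ectoderm, 179 and 174 in mesoderm and 234 and 228 in endoderm, or 248 ± 48.9, 342 ± 17.8, 341 ± 5.88 and 394 ± 7.54 CPM in the same order (SD, n = 2). All 6 layer libraries were above both hPSC libraries in CPM. In the fit the endoderm rise was 0.97 ± 0.31 SE (adjusted p 0.0281), with 0.0081 ± 0.30 SE in ectoderm and 0.19 ± 0.31 SE in mesoderm (adjusted p 0.989 and 0.653). The endoderm call was lost without hPSC repeat 1 (0.67, adjusted p 0.0655), without endoderm repeat 1 (1.08, 0.0679), without endoderm repeat 2 (1.05, 0.0796) and with library totals alone (0.65, 0.0567). It passed in the other 13 of 17 alternatives, with a lowest adjusted p of 0.00018.

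Much of RBFOX2 came from single-exon transcripts. A pair of them lies on the gene's strand at an internal promoter, at 35838132 to 35842025 (3894 nt) and 35838256 to 35840448 (2193 nt) of chromosome 22. Each covers the first splice donor of that promoter at 35840192 and runs 2060 or 1936 nt past it without splicing, and GENCODE 29 lists no other gene there. Pooled over repeats, 211 of 270 RBFOX2 reads in hPSC were of this kind (78.1%, 95% exact interval 72.7% to 82.9%), 268 of 732 in ectoderm (36.6%, 33.1% to 40.2%), 288 of 462 in endoderm (62.3%, 57.7% to 66.8%) and 183 of 353 in mesoderm (51.8%, 46.5% to 57.2%). These counts include 1 further, rare single-exon transcript. The 2 hPSC libraries had the highest shares, at 72.1% and 82.4%, and the 2 ectoderm libraries the lowest, at 35.5% and 37.9%. The pair is shorter than the mean of 4905 nt over all RBFOX2 reads, and the ectoderm libraries also held the longest transcripts. Endoderm libraries held the shortest transcripts but had lower shares than hPSC. The part of transcript length in this split was not tested.

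Transcripts with at least 2 exons stood at 59.7 and 49.8 CPM in hPSC, 213 and 220 in ectoderm, 154 and 175 in mesoderm and 162 and 135 in endoderm. All layer libraries were above both hPSC libraries. Counting only such transcripts, an alternative chosen after seeing the data, RBFOX2 rose in ectoderm by 1.60, in endoderm by 1.77 and in mesoderm by 1.37 (adjusted p 0.000596, 0.00065 and 0.00306). The highest adjusted p over all 17 alternatives was 0.995, 0.0796 and 0.876. No alternative both kept to transcripts of at least 2 exons and removed the length trend. Single-exon transcripts were 154 and 233 CPM in hPSC, 117 and 134 in ectoderm, 183 and 171 in mesoderm and 237 and 254 in endoderm, so ectoderm was lowest and did not overlap hPSC.

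**Figure D3:**
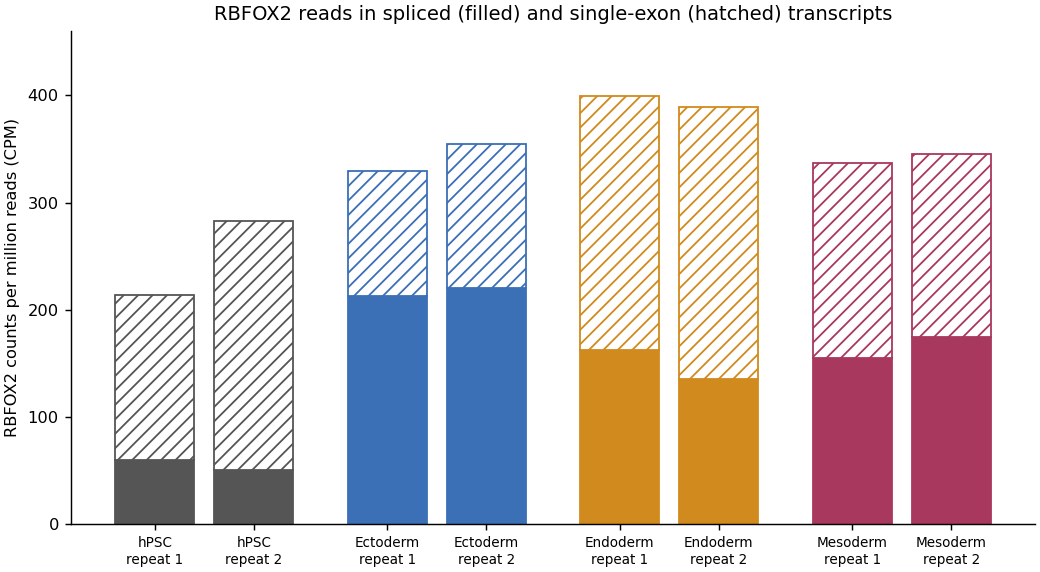
RBFOX2 level in CPM (vertical axis) in each of the 8 libraries, split into transcripts of at least 2 exons (filled) and single-exon transcripts (hatched, stacked on top). The filled part is at most 59.7 CPM in hPSC and at least 135 CPM in every layer library.

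The test of transcript choice, which asks whether the transcripts of 1 gene change by different amounts (edgeR's diffSpliceDGE), could be run for 5 of the 10 genes. Like the count test of single transcripts, it was not run with the length trend removed. RBFOX2 passed in ectoderm (adjusted p 0.000817, with 5.63% of all 2629 genes called) and in mesoderm (adjusted p 0.0362, 7% called), and did not in endoderm (adjusted p 0.185, 5.06% called). The ectoderm call was lost only without ectoderm repeat 1 (adjusted p 0.0635). The mesoderm call was lost without hPSC repeat 2 (0.249), without mesoderm repeat 2 (0.203), without the filter (0.0640) and with the Simes test (0.165), and the endoderm test passed without hPSC repeat 1 (0.00529) and without mesoderm repeat 2 (0.0488). Single transcripts passed the count test for 9 of 17 tested in ectoderm (45.9% of all transcripts), 2 of 17 in endoderm (26.7%) and 3 of 17 in mesoderm (32.8%). The RBFOX2 transcript of the 376-residue form (ENST00000416721.6) was called in all 3, with 3 and 4 reads in hPSC, 44 and 38 in ectoderm, 9 and 21 in mesoderm and 14 and 13 in endoderm (log2 change 2.30 with ectoderm, 2.04 with mesoderm and 2.08 with endoderm, adjusted p 0.00376, 0.0184 and 0.0211). This transcript passed the low-count filter only through layer libraries, in which it was high, so these values are a description. Its endoderm call was lost without hPSC repeat 1 (1.81), without either endoderm repeat (2.06 and 2.12) and with DESeq2 (2.14), and its mesoderm call without mesoderm repeat 2 (1.32), with DESeq2 (2.14) and without the filter (1.96).

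Spliced RBFOX2 reads began mainly at the internal promoter. Its first exon, with the splice donor at 35840192, took 64.5% and 71.4% of spliced reads in hPSC, 69.3% and 62.4% in ectoderm, 75.6% and 80.7% in mesoderm and 84.2% and 84.8% in endoderm, and most of the rest used the far upstream donor at 36028240. Endoderm was highest and did not overlap the other groups. The exact permutation test gave p = 0.0381, for the only gene with enough spliced reads from more than 1 first exon. In the same exact permutation test the call was lost without hPSC repeat 2 or ectoderm repeat 2 (p = 0.0571 each), endoderm repeat 1 (0.0952), endoderm repeat 2 (0.105) or mesoderm repeat 2 (0.0857). A 40-nt cassette exon, whose length is not a multiple of 3, is shown because it separates these isoforms near the 3′ end.
RBFOX2, chr22:35756105-35756144, minus strand, 5′ to 3′, GRCh38: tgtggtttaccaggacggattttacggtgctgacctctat
It was included in 72.4% and 78.6% of reads in hPSC, 81.4% and 78.2% in ectoderm, 67.9% and 70.5% in mesoderm and 66.3% and 67.1% in endoderm. The exact permutation p was 0.0286 and 0.0952 after adjustment over the 5 exons, which does not pass, and it did not pass without any single library. A 120-nt exon was included in at most 5.00% of reads in any library (exact permutation p = 0.771).

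NOVA1 rose in ectoderm from few reads. NOVA1 is a KH-domain protein that binds clusters of short CA-containing motifs and is restricted mainly to neurons. The gene (ENSG00000139910.20, chromosome 14, 26443090 to 26598270, minus strand) had 5 and 2 reads in hPSC, 36 and 33 in ectoderm, 4 and 4 in mesoderm and 0 and 1 in endoderm. The ectoderm libraries, at 30.5 and 34.1 CPM, were above all others, at 0 to 9.63 CPM. It passed the low-count filter only through those 2 libraries. The rise was 1.87 ± 0.53 SE (adjusted p 0.009). It was lost without ectoderm repeat 2 (1.95, adjusted p 0.0652), with DESeq2 (1.96, 0.129) and with the length trend removed (0.78, 0.293), was larger without hPSC repeat 1 (2.55), and passed in 12 of 15 alternatives with a lowest adjusted p of 0.00247. NOVA1 reads fell on the longest transcripts of the 10 genes, with a mean of 10252 nt. In ectoderm 54 of 69 NOVA1 reads (78.3%) were in transcripts with a single exon or holding a whole intron, and 5 reads matched the 507-residue form (ENST00000539517.7). Of 6 neuron markers only TUBB3 and STMN2 were tested, and neither passed as higher in ectoderm. TUBB3, DCX, STMN2, SNAP25 and MAPT summed to 24.8 and 30.5 CPM in ectoderm and 39.5 and 45.6 in mesoderm. Their sum was 248 and 340 in hPSC and 1653 and 1714 in endoderm, where TUBB3 alone gave 1617 and 1687. TUBB3 fell in ectoderm, ectoderm repeat 2 held no read of the other 4, and ELAVL4 had none in any library.

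ESRP1 and ESRP2, which promote epithelial splice forms, were called in no layer together. ESRP2 (ENSG00000103067.14, chromosome 16, 68229033 to 68236127, minus strand) had 57 and 14 reads in hPSC, 38 and 27 in ectoderm, 58 and 55 in mesoderm and 46 and 30 in endoderm, all on 1 assembled transcript. In CPM hPSC repeat 1 stood at 110 and repeat 2 at 24.9, and the ectoderm libraries at 32.2 and 27.9 lay between them, while mesoderm was at 109 in both. ESRP2 was called lower in ectoderm (-1.50 ± 0.44 SE, adjusted p 0.0111), not in endoderm (0.35 ± 0.44 SE, 0.598) or mesoderm (0.53 ± 0.42 SE, 0.342). The ectoderm call rested on hPSC repeat 1: without it the change was -0.30 (adjusted p 0.611), and ESRP2 then passed as higher in endoderm (1.56, 0.00358) and mesoderm (1.73, 0.00046). It was also lost without ectoderm repeat 1 (-1.50, 0.0858), without ectoderm repeat 2 (-1.27, 0.135) and with library totals alone (-1.10, 0.0992), and passed in the other 13 of 17 alternatives.

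ESRP1 (ENSG00000104413.18, chromosome 8, 94641074 to 94707466, plus strand) had 66 and 100 reads in hPSC, 298 and 276 in ectoderm, 92 and 96 in mesoderm and 41 and 43 in endoderm. In CPM ectoderm was highest at 252 and 285 and endoderm lowest at 70.0 and 73.4, and neither overlapped hPSC at 127 and 178. No fitted change against hPSC passed, with 0.36 ± 0.31 SE in ectoderm, -0.78 ± 0.34 SE in endoderm and -0.012 ± 0.32 SE in mesoderm (adjusted p 0.353, 0.0982 and 0.984). Ectoderm passed without hPSC repeat 2 (0.88, adjusted p 0.0134) and with library totals alone (0.86, 0.0167), and endoderm without hPSC repeat 1 (-1.12, 0.00351) and with library totals alone (-1.11, 0.0122). Over the 17 alternatives adjusted p reached 0.982 in ectoderm and 0.464 in endoderm. A 110-nt exon was included in 70.6% to 87.2% of ESRP1 reads and a 151-nt exon in 52.0% to 100% (exact permutation p = 0.133 and 0.114, 0.167 each after adjustment). The 151-nt exon was included in 22 of 40 hPSC reads (55.0%) and 83.8% of ectoderm reads. A transcript ending early took 9.64%, 14.5%, 8.33% and 15.4% of ESRP1 reads in hPSC, ectoderm, endoderm and mesoderm (exact permutation p = 0.324 for the main last exon). Without endoderm repeat 2 the 110-nt exon passed, and without mesoderm repeat 1 the 151-nt exon and the last exon did, each at 0.0476.

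Epithelial markers were read beside the ESRP genes. Of 8 tested epithelial markers, CLDN6, CLDN7, KRT18, KRT8 and OVOL1 fell in ectoderm, KRT18 and KRT8 rose while CDH1 and GRHL2 fell in endoderm, and CDH1, EPCAM, GRHL2, KRT18 and KRT8 rose while CLDN7 fell in mesoderm. The list summed to 2667 and 3094 CPM in hPSC, 1397 and 1452 in ectoderm, 10190 and 11690 in mesoderm and 7745 and 8719 in endoderm. KRT18 and KRT8 made up most of it in mesoderm (mean 4436 and 3732 CPM) and endoderm (2783 and 3779). Other members ranked the groups differently. CDH1 had a mean of 601 CPM in hPSC, 868 in ectoderm, 1626 in mesoderm and 134 in endoderm. GRHL2 had 23.9, 43.3, 92.4 and 2.56 in the same order. Of 6 tested mesenchymal markers, CDH2 and ZEB2 rose in ectoderm, where FN1, SNAI1 and VIM fell, and 4 rose in endoderm and 3 in mesoderm. TWIST1 had no read in any library. The part of cell type makeup in the changes of ESRP1 and ESRP2 was not tested.

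**Figure D4:**
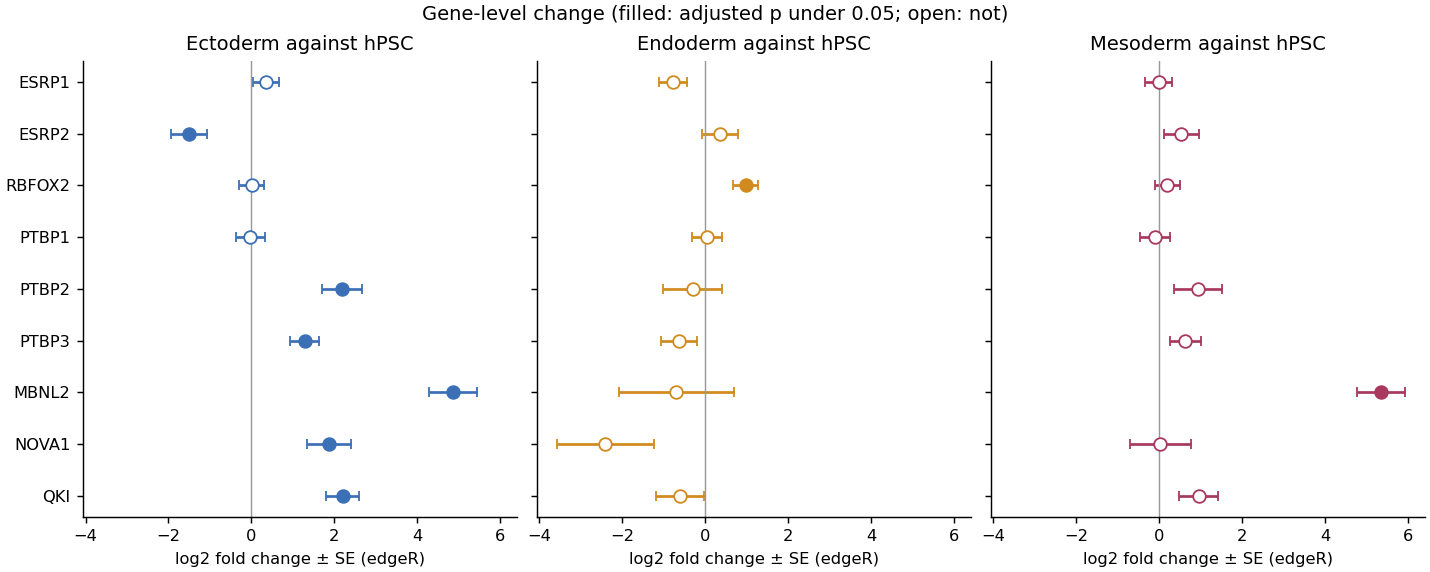
log2 fold change against hPSC (horizontal axis, points with SE bars from edgeR) of the 9 tested genes in ectoderm, endoderm and mesoderm; filled points have an adjusted p under 0.05. Filled points number 6 in ectoderm and 1 each in endoderm (RBFOX2) and mesoderm (MBNL2).

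The layers were also compared with each other. In ectoderm against endoderm 8 of 9 tested genes passed, with 63.1% of all genes. CPM did not overlap for any of the 9, nor for 85.8% of all tested genes. ESRP1 (1.14 ± 0.33 SE, adjusted p 0.00677), PTBP2 (2.50 ± 0.52 SE, 0.000727), PTBP3 (1.92 ± 0.38 SE, 0.000445) and QKI (2.81 ± 0.45 SE, 7.21e-05) were higher in ectoderm. So were NOVA1 and MBNL2, at 37.6 (95% exact interval 6.53 to 1508) and 92.2 (16.3 to 3662) times the pooled endoderm level, which was 1 read each (adjusted p 0.000373 and 7.17e-06). ESRP2 (-1.85 ± 0.44 SE, 0.00196) and RBFOX2 (-0.97 ± 0.30 SE, 0.0112) were lower. The ESRP2 call was lost without endoderm repeat 1 (-1.50, 0.0613), and the RBFOX2 call without ectoderm repeat 1, ectoderm repeat 2 or endoderm repeat 2 (-0.85, -0.92 and -0.90). The PTBP2 difference was 4.61 without endoderm repeat 1 and 1.76 without endoderm repeat 2, and that of QKI 3.40 without endoderm repeat 1. Those of NOVA1 and MBNL2 were 3.40 and 4.68 without endoderm repeat 1, and without endoderm repeat 2, which held the 1 read, they rest on a group at 0 and depend on the prior count. With the length trend removed PTBP2 (1.27, 0.0565) and PTBP3 (0.86, 0.0641) no longer passed, and with library totals alone ESRP2 (-1.04, 0.0940) and RBFOX2 (-0.15, 0.587) did not. ESRP1, QKI, MBNL2 and NOVA1 passed under all their alternatives.

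RBFOX2 depended on which transcripts were counted here too, since it gave -0.17 between ectoderm and endoderm over transcripts of at least 2 exons and -0.31 over reference-matching ones (adjusted p 0.607 and 0.447). It passed in 11 of 17 alternatives. PTBP1 differed in CPM (528 ± 44.6 in ectoderm, 326 ± 2.17 in endoderm, SD, n = 2) but did not pass in the fit (-0.066 ± 0.36 SE, adjusted p 0.883). With library totals alone the median of all genes moved from 0.19 to 1.00 in this comparison and the share of called genes that were higher from 52.5% to 72.9%.

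Ectoderm against mesoderm gave 4 calls of 9, with 35.4% of all genes. CPM did not overlap for 8 of the 9, nor for 74.9% of all tested genes. PTBP2 (1.26 ± 0.42 SE, adjusted p 0.0272), NOVA1 (1.84 ± 0.51 SE, 0.0113) and QKI (1.26 ± 0.35 SE, 0.0109) were higher in ectoderm, and ESRP2 was lower (-2.04 ± 0.43 SE, 0.00181). PTBP2 and NOVA1 lost their calls without any 1 of the 4 ectoderm and mesoderm libraries, with PTBP2 between 1.10 and 1.58 and NOVA1 between 1.86 and 1.99. QKI lost its call without ectoderm repeat 2 (1.27), mesoderm repeat 1 (1.24) or mesoderm repeat 2 (1.39), and ESRP2 without ectoderm repeat 2 (-1.84, 0.0565). PTBP2, NOVA1 and QKI also lost theirs with DESeq2 (1.29, 1.89 and 1.29) and with the length trend removed (0.69, 1.21 and 0.73), and PTBP2 over reference-matching transcripts (1.06). Of the alternatives run, PTBP2 passed in 10 of 17, NOVA1 in 9 of 15, QKI in 12 of 17 and ESRP2 in 16 of 17. MBNL2 passed as lower in ectoderm only with the length trend removed (-0.84, adjusted p 0.0402, highest 0.642), and PTBP3 as higher only without either hPSC repeat. With library totals alone the median of all genes moved from 0.023 to 0.24 and the share of called genes that were higher from 51.3% to 63.3%.

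Endoderm against mesoderm also gave 4 calls of 9, with 47.1% of all genes. CPM did not overlap for any of the 9, nor for 79.9% of all tested genes. MBNL2, with 1 read in endoderm and 99 in mesoderm, was lower in endoderm (adjusted p 6.27e-06), as were PTBP3 (-1.27 ± 0.41 SE, 0.0197) and QKI (-1.56 ± 0.52 SE, 0.0223), while RBFOX2 was higher (0.78 ± 0.30 SE, 0.0458). MBNL2 kept its call without any 1 library, and endoderm was at 0 without endoderm repeat 2. PTBP3 lost its call without endoderm repeat 1, endoderm repeat 2 or mesoderm repeat 2 (-1.06, -1.45 and -1.04). QKI lost its call without endoderm repeat 2, mesoderm repeat 1 or mesoderm repeat 2 (-1.16, -1.63 and -1.48). PTBP3 and QKI also lost theirs with DESeq2 (-1.25 and -1.56) and with the length trend removed (-0.67 and -0.92), and each passed in 12 of 17 alternatives. RBFOX2 lost its call, among other settings, without any 1 of the 6 layer libraries (0.76 to 0.82), with DESeq2 (0.80), with library totals alone (0.17), over reference-matching transcripts (0.40) and over those of at least 2 exons (0.40), and passed in 6 of 17. ESRP1 passed as lower in endoderm with library totals alone (-1.38) and without either hPSC repeat (-0.75 and -0.76), and PTBP2 with library totals alone (-1.83), over reference-matching transcripts (-1.94) and without endoderm repeat 1 (-3.27). With library totals alone the median of all genes moved from -0.16 to -0.76 and the share of called genes that were higher from 49.3% to 26.8%.

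**Figure D5:**
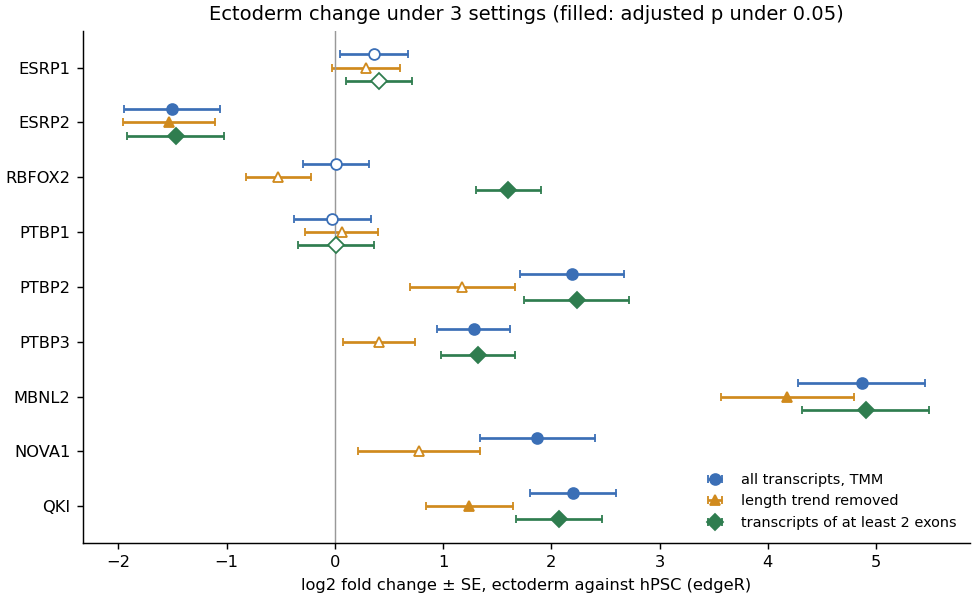
log2 fold change of ectoderm against hPSC (horizontal axis, points with SE bars from edgeR) for the 9 tested genes with all transcripts (circles), with a trend on transcript length removed (triangles) and with transcripts of at least 2 exons only (diamonds); filled points have an adjusted p under 0.05. MBNL2, QKI and ESRP2 stay filled wherever shown, PTBP2, PTBP3 and NOVA1 are open with the length trend removed, and RBFOX2 is filled only with transcripts of at least 2 exons (1.60).

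Of 32 other lineage splicing regulators 30 had reads and 16 were tested. They gave 5 calls in ectoderm, 6 in endoderm and 5 in mesoderm, beside the 48.6%, 27.2% and 35.1% of all genes. In ectoderm 4 rose and 1 fell: the rising genes were CELF2 (2.22 ± 0.51 SE), KHDRBS2 (1.67 ± 0.53 SE), RBMS1 (1.50 ± 0.52 SE) and TIA1, a U1-recruiting splicing factor (2.28 ± 0.34 SE), and RBPMS2 fell (-3.47 ± 0.60 SE). In endoderm TIAL1 rose (1.04 ± 0.36 SE), and ELAVL1 (-2.23 ± 0.69 SE), KHDRBS1, which encodes SAM68 (-2.99 ± 0.65 SE), RBM47 (-1.69 ± 0.60 SE), RBPMS (-2.75 ± 0.46 SE) and MSI2 (-1.72 ± 0.56 SE) fell. In mesoderm RBM47 (1.60 ± 0.43 SE), TIA1 (1.36 ± 0.36 SE), RBMS1 (2.55 ± 0.51 SE) and RBMS3 rose and RBPMS2 fell (-2.78 ± 0.60 SE). RBMS3 had 3 reads in hPSC and 42 in mesoderm, a pooled ratio of 14.6 (95% exact interval 4.67 to 73.8). CELF2 passed the low-count filter only through its ectoderm libraries and RBMS3 only through its mesoderm libraries. Their values, and the counts and medians of this list, are therefore a description. The list's medians were 0.48, 0.28 and 0.43 in ectoderm, endoderm and mesoderm, beside -0.011, -0.13 and 0.0083 over all genes.

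The hPSC libraries disagreed for several of these genes as they did for ESRP2 and PTBP1. ELAVL1 had 198 and 15 reads, KHDRBS1 133 and 22 and RBPMS2 347 and 64. ELAVL1 overlapped between endoderm and hPSC. Close relatives of the 10 genes were sparse. Over both libraries RBFOX1 had 17 reads in ectoderm and 1 in hPSC, MBNL3 had 17 and 1, and NOVA2 had 11 and 22.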

How the data were processed

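The 8 libraries (hPSC, ectoderm, endoderm and mesoderm, 2 each) are poly(A) RNA run on a PacBio Sequel II, as the labels' protocols state. Reads were aligned with minimap2 and assembled with StringTie on GRCh38, per the submitters' processing notes; versions, the counting tool, its use of strand and its treatment of reads shared by similar genes are not given in the sources used here. The authors deposited raw counts per assembled transcript. The 2 endoderm columns are listed as estimated counts, but like the other deposited columns they hold whole raw counts and nothing was rounded.

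Gene counts were sums over transcripts the assembly names for a gene, without intronic, antisense and nearby ones. edgeR 4.0.16 in R 4.3.3 fitted all 8 libraries at once (TMM factors, filterByExpr with a minimum count of 10, glmQLFit and glmQLFTest, Benjamini-Hochberg over all genes or transcripts, threshold 0.05), without a block for the repeat number. The SE is the log2 change divided by the square root of F. Transcript choice used diffSpliceDGE. Exon inclusion is the share of reads on transcripts with both introns beside an exon among those with both or the joining intron; exons with at least 10 such reads in every library were tested by an exact permutation of F over all partitions into 4 pairs, whose smallest p is 0.00952. Intervals are exact 95% binomial intervals for shares and exact conditional intervals for ratios and cover counting error only; reads are not known to be independent molecules. A group at 0 was set to a floor of 3 reads in each of its libraries. Library totals from 503840 to 1180888 reads set a floor of 2.54 to 5.95 CPM. The scripts were tested on simulated data.

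Named genes are the 10 genes, the other regulators that passed in a layer, and the 3 genes nearest to the tested member with the widest range of group mean log2 CPM; transcripts and exons were named by their read share. The genes and lists were chosen with earlier results of these data known. Alternatives were DESeq2 1.42.0, other scaling factors, no filter, a length trend removed, other choices of transcripts, a replicate block and leaving out each library. Exon sequences are from GENCODE 29 transcripts (GRCh38), in which 30 of the 36 reference-matching transcripts of the 10 genes were found, and the promoter is from RefSeq (GRCh38.p14).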

Additional observations from a re-analysis of the deposited data

Results flagged for a closer look

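Assembled transcripts that lie inside introns were kept out of the gene counts, and those of PTBP2 and QKI held more reads in a layer than in hPSC. Intronic transcripts of PTBP2 had 15 and 16 reads in the ectoderm libraries against 1 and 2 in hPSC, or 31 against 3 in all, a pooled ratio in CPM of 5.20 (95% exact interval 1.62 to 26.6). Those of QKI had 20 and 17 reads in ectoderm against 3 and 1 in hPSC, or 37 against 4 in all (ratio 4.66, 1.67 to 18.0). In mesoderm QKI had 5 and 8 such reads, or 13 in all (ratio 3.40, 1.05 to 14.3). The intervals cover counting error only, and the differences were not tested across libraries.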

How the results depend on the processing

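Leaving out libraries moved counts more than other settings did: 67 counts of calls moved by over 1.5 times and 149 did not when a library was left out, against 28 and 128 under other settings. When each library was left out, genes called against hPSC ranged from 3293 to 5960 in ectoderm (5274 in all libraries), 1455 to 4067 in endoderm (2946) and 2012 to 5084 in mesoderm (3810), and the 10 genes gave 4 to 7, 0 to 3 and 1 to 3 calls. Between layers the ranges were 5331 to 8205 for ectoderm and endoderm, 1780 to 5631 for ectoderm and mesoderm and 3390 to 6487 for endoderm and mesoderm, with 7 to 8, 0 to 5 and 1 to 5 of the 10 genes. Called transcripts ranged from 3391 to 7314, 1573 to 4842 and 2051 to 6160 in ectoderm, endoderm and mesoderm, with 3 to 13, 1 to 6 and 2 to 9 transcripts of the 10 genes. Genes called for transcript choice ranged from 12 to 307, 24 to 211 and 37 to 312, with 0 to 1, 0 to 1 and 0 to 2 of the 10 genes. Cassette exons passing ranged from 0 to 2, first exons from 0 to 1 and last exons from 0 to 1. The change of PTBP1 ranged from -0.47 to 0.77 in ectoderm and from -0.61 to 0.69 in mesoderm.

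Of 10847 genes DESeq2 called 3356 in ectoderm, 1836 in endoderm and 2315 in mesoderm against hPSC. Between ectoderm and mesoderm it called 2015, with 1 of the 10 genes. Between endoderm and mesoderm it called 3572, also with 1 of the 10 genes. It called 2899, 1606 and 2133 transcripts in ectoderm, endoderm and mesoderm, with 3 of the 10 genes' transcripts in ectoderm and 0 in endoderm. With the length trend removed 3 of the 10 genes were called in ectoderm against hPSC, 2 between ectoderm and mesoderm and 2 between endoderm and mesoderm. Beside them 3909, 3333 and 4633 of all 10847 genes were called in the same order. In mesoderm 2 were called with library totals alone, with intronic transcripts counted or with transcripts of at least 2 exons. All genes gave 3657 of 10847, 3877 of 10921 and 3640 of 10208 there. Reference-matching transcripts gave 5 calls between ectoderm and endoderm and 2 between ectoderm and mesoderm, beside 5260 and 2879 of all 8427 genes. They left 0 first exons to test. Without the filter 17 transcripts of the 10 genes were called in ectoderm and 4 in endoderm, beside 8069 and 3490 of all 96614. In that setting 0 genes of the 10 changed transcript choice in mesoderm. The Simes test called 70, 56 and 78 genes for transcript choice in ectoderm, endoderm and mesoderm, with 0 of the 10 in mesoderm. The cause of these changes was not tested. Deviations of libraries with the same repeat number correlated from -0.034 to 0.15 over the 6 pairs of groups, highest for hPSC and endoderm. With 2 libraries per group this cannot show whether same-numbered repeats share a culture or processing, and the labels do not say. A replicate block lowered the genes called for transcript choice in ectoderm from 148 to 98 and ended the RBFOX2 call between endoderm and mesoderm (adjusted p 0.0577). Where leaving out a library leaves 1 in a group, that library is assumed to vary like the other groups. Genes with few reads in hPSC and endoderm (MBNL1, MBNL2, NOVA1) are limited by depth.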
